A study of Caenorhabditis elegans with 12 samples.

Results

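Translation efficiency (TE), the ribosome footprint level of a gene relative to its mRNA level, was compared between pmk-1(km25) mutant and wild-type N2 (WT) larvae of the nematode Caenorhabditis elegans. The comparison used 8 of the 12 libraries of the series: total mRNA and ribosome-protected fragments (RPF) from each of 4 of the 6 worm samples. The other worm samples were ced-3(n717) mutants, which entered the model for the estimate of spread and served as a second mutant for reference. All strains were whole worms grown on the same OP50 bacteria. Eggs from bleached young adults hatched without food over 24 h, and the larvae were fed for 18 h at 20 °C. At harvest more than 90% of WT larvae were in L3, the third larval stage. Each genotype had 2 independent worm samples. The time was set by WT, so mutants were taken at an equal time of feeding.

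PMK-1 is a p38 MAP kinase. In the worm intestine it acts below the adaptor TIR-1, the kinase NSY-1 and the kinase SEK-1, and drives immune effector genes through the transcription factor ATF-7. km25 is a deletion allele, so a transcript of the mutated locus can still be counted. Ribosome profiling sequences the RNA fragments shielded by ribosomes, and TE then asks whether footprints follow the mRNA or depart from it. A TE fold is given on the log2 scale as the RPF fold minus the mRNA fold of pmk-1 against WT, with its standard error (SE). A TE fold of 0 means that footprints and mRNA changed by the same factor. Whole larvae were used, so fewer cells of a type and less RNA per cell cannot be told apart.

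Library totals ran from 15471380 to 17150137 counts in the 4 mRNA libraries and from 7756367 to 10115985 in the 4 RPF libraries. Markers of intestine, body wall muscle, hypodermis, germline, neurons and pharynx were all detected. Summed pharynx markers ran from 1950 to 2180 CPM (counts scaled to library size) in WT mRNA and from 2640 to 3070 CPM in pmk-1 mRNA, and from 1700 to 1850 CPM against 2130 to 2160 CPM in RPF, and their part in the results was not tested. Sperm and yolk markers of later stages summed to at most 1.01 CPM in any library.

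The RPF library of pmk-1 replicate 2 stood apart in genes that were nearly absent from pmk-1 mRNA. There were 14 genes with at least 20 CPM in WT mRNA and RPF and with less than 1/16 of the WT mRNA level in both pmk-1 samples. Their RPF level in pmk-1 replicate 1 was 0.0284% to 7.46% of WT, with a median of 2.15%. In replicate 2 it was 3.85% to 12.16%, with a median of 7.04%, and it was higher than in replicate 1 in 14 of 14 genes. Their mRNA was closer between the samples, with medians of 1.65% and 2.75% of WT. The genes were chosen after their values were seen, and the cause of the difference was not tested. TE values of such genes are therefore given with and without this worm sample.

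**Figure D1:**
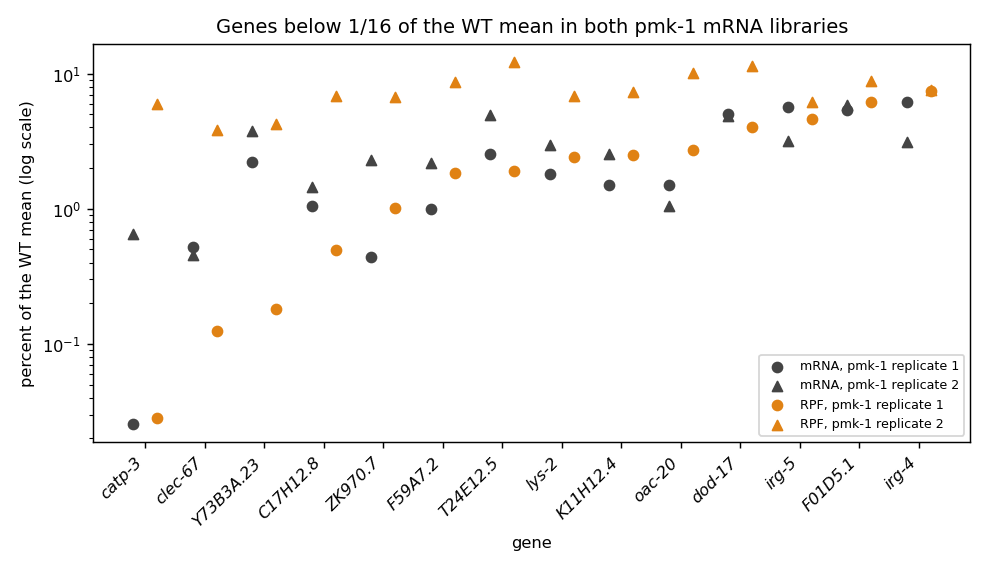
Level in pmk-1 as a percent of the WT mean (log axis) for the 14 genes below 1/16 of WT in both pmk-1 mRNA libraries. Grey marks are mRNA and orange marks RPF, with circles for replicate 1 and triangles for replicate 2. The orange triangles lie between 3.85% and 12.16% in every gene, while the orange circles reach down to 0.0284%.

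For most genes neither mRNA nor TE moved far. The mRNA folds had quartiles of -0.20 and 0.17, so most genes had little mRNA change for footprints to follow. Of 13698 genes tested, the TE of catp-3 rose and that of nduo-2 fell past an adjusted p of 0.05, so that 0.0146% were called. The median TE fold was 0.01, and 84.5% of genes had a log2 TE fold within 0.5 of 0. The 95% interval of a gene's own fold lay wholly between -1 and 1 for 9344 genes, or 68.2%, so a change of 2 times or more was outside the interval for those genes. Unadjusted p-values below 0.05 were found for 239 genes with higher TE (1.74%) and 221 with lower TE (1.61%). Those with lower TE were protein coding in 88.2% of cases, against 94.1% of those with higher TE and 95.5% of all genes tested.

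The spread between worm samples sets what could be seen. Over 9980 genes with a mean of at least 5 CPM, the log2 ratio of RPF to mRNA differed between the WT replicates with an SD of 0.426 and between the pmk-1 replicates with an SD of 0.342. The genotype means, each over 2 worm samples, differed with an SD of 0.287. A difference of means varies less than a difference of single samples, so this value cannot be set directly against the other SDs. In pmk-1 the mRNA itself differed between replicates with an SD of 0.531 and the RPF with an SD of 0.559, both above the 0.342 of the ratio. In WT the order was the other way, with an SD of 0.261 for mRNA and 0.404 for RPF against 0.426 for the ratio. The mRNA fit called 57 of 13536 genes (0.421%), of which 53 were lower in pmk-1 (0.392%). The RPF fit called 23 of 12633 genes (0.182%), of which 21 were lower (0.166%). The 53 genes lower in mRNA had a median log2 fold of -3.47 in mRNA. In the 52 of them that were tested in RPF the median was -3.29. Their median TE fold was 0.32, and 0.10 without pmk-1 replicate 2. A gene chosen for low mRNA has that same mRNA in the lower part of its TE, so these medians are a description.

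**Figure D2:**
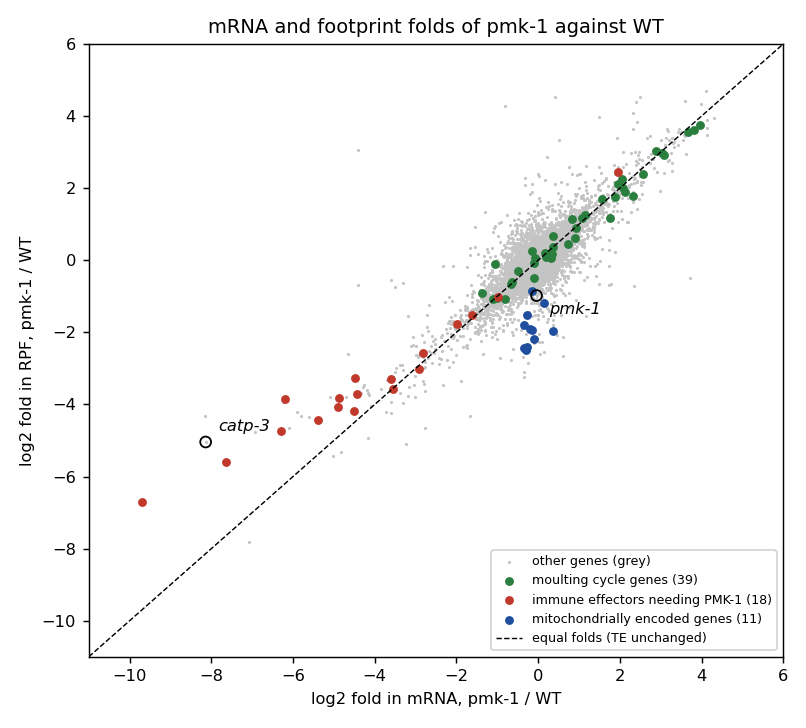
Log2 fold of pmk-1 against WT in mRNA (x axis) and in RPF (y axis), each from its own fit, with 1 point per gene. Moulting genes (green) lie along the dashed line of equal folds, immune effectors (red) lie on or above it at the low end, and mitochondrially encoded genes (blue) lie below it at mRNA folds near 0.

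The mutated gene itself had lower footprint levels in both mutant samples at a like mRNA level. pmk-1 mRNA was 40.2 and 39.0 CPM in WT and 38.3 and 38.2 CPM in the mutant. RPF was 44.4 and 49.2 CPM in WT and 23.3 and 23.8 CPM in the mutant. In ced-3 worms the RPF level was 39.8 and 45.1 CPM. The mutant RPF values lay below all 4 others, while the mRNA values of the groups lay close together. The TE fold was -0.94 ± 0.16 (SE, 95% interval -1.28 to -0.61), which missed the threshold with an adjusted p of 0.0583 in edgeR's quasi-likelihood test. It passed in 6 of the 16 alternative settings, with folds from -1.02 to -0.91 over all of them. Those settings include the fits without a ced-3 sample, which nearly repeat the fit of the compared genotypes alone and are not separate support. Without pmk-1 replicate 2 the TE fold was -0.95. The counts are per gene, so they do not show which part of the deleted locus they came from.

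For other members of the pathway no TE change passed the test. The list of 18 genes of the p38 and neighbouring kinase pathways includes pmk-1 itself. The 17 others all lay within 0.5 of 0. Of the 18, 0 passed the test, with a median of -0.08. Without pmk-1 replicate 2 the median was -0.24, with vhp-1 at -0.54, tir-1 at -0.43 and skn-1 at -0.41. pmk-2 and pmk-3, the p38 genes that share an operon with pmk-1, had TE folds of -0.04 ± 0.30 and -0.05 ± 0.18. The upstream genes tir-1, nsy-1 and sek-1 had -0.17 ± 0.17, 0.05 ± 0.14 and 0.10 ± 0.18. atf-7 had -0.17 ± 0.15, and vhp-1, which encodes a MAP kinase phosphatase, had -0.19 ± 0.20. The widest of these intervals was that of pmk-2, from -0.69 to 0.60.

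catp-3, which encodes a P-type cation transporter, had the smallest p-value of the comparison and rests on 1 library. Its mRNA counts were 4159 and 4205 in WT and 1 and 29 in pmk-1. Its RPF counts were 2723 and 3685 in WT and 1 and 226 in pmk-1. In CPM the mutant values were 0.073 and 1.85 for mRNA and 0.101 and 21.2 for RPF, against 279 and 294, and 345 and 367, in WT. The log2 ratio of RPF to mRNA was 0.31 and 0.32 in WT and 3.52 in pmk-1 replicate 2, while in replicate 1 it was formed from 1 count over 1 count. The TE fold was 3.12 ± 0.26 (adjusted p = 3.84e-05). Without pmk-1 replicate 2 it was 0.11, and no gene was called: 533 genes then had an unadjusted p below 0.05. In ced-3 worms catp-3 was at 180 and 188 CPM in mRNA and 233 and 244 CPM in RPF, so the near absence was seen in pmk-1 worms in both assays.

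Immune effector genes that are known to need PMK-1 fell in mRNA, and their footprints were low as well. The list of 18 genes summed to 1865 and 1737 CPM of mRNA in WT and to 247 and 264 CPM in pmk-1. The summed RPF level was 2658 and 2533 CPM in WT and 432 and 492 CPM in pmk-1. Neither pair of groups overlapped. In ced-3 worms the list was also below WT, though above pmk-1, at 1056 and 781 CPM of mRNA and 1627 and 1095 CPM of RPF. Median log2 folds were -4.46 in mRNA and -3.65 in RPF. The mRNA of 14 of the 18 passed the test downward (0.392% of all genes did), and the RPF of 6 (0.166%). These calls depended on the samples used: without either WT sample 1 of the 18 passed in mRNA and 0 in RPF, without pmk-1 replicate 1 it was 10 and 0, and with the replicate number as a block 8 and 0. Without pmk-1 replicate 2 it was 14 and 12, and with DESeq2 18 and 17. Summed intestine markers were somewhat lower in pmk-1, at 5040 to 5310 CPM of mRNA against 5530 to 6100 CPM in WT and 6960 to 7040 CPM of RPF against 7980 to 9050 CPM, and their part in these values was not tested. In TE 0 of 18 were called, and 15 folds were above 0 (52.3% of all genes were). An unadjusted p below 0.05 was found for 6, all higher (1.74% of all genes were). The median TE fold was 0.57, or 0.40 without dod-22, and without pmk-1 replicate 2 it was 0.05. Of the 17 members other than dod-22, 14 folds were above 0 with both pmk-1 samples and 9 without replicate 2. The list was written with earlier results of these data known.

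The members with an unadjusted p below 0.05 differed in how far the fold rested on pmk-1 replicate 2. For lys-2, a lysozyme gene, mRNA was 340 and 267 CPM in WT and 5.47 and 8.94 CPM in pmk-1, and RPF was 407 and 326 CPM in WT and 8.79 and 24.9 CPM in pmk-1. In ced-3 worms lys-2 was at 123 and 70.3 CPM of mRNA and 139 and 75.8 CPM of RPF. The TE fold of lys-2 in pmk-1 against WT was 0.88 ± 0.20 (adjusted p = 0.646), and 0.41 without replicate 2. clec-67, a C-type lectin gene, had 4 mRNA counts in each pmk-1 sample but 1 and 33 RPF counts. Its TE fold was 2.04 ± 0.67 with both samples and -1.94 without replicate 2. C17H12.8, a CUB-like gene, went from 1.49 to -1.08 in the same way. F55G11.8 went from 1.21 to 0.02, and irg-4, an infection response gene, from 0.75 to 0.28. For T24B8.5, whose promoter is a common reporter of PMK-1 activity, the fold was 2.35 ± 0.70 and stayed at 2.36 without replicate 2. It rests on 1 and 2 mRNA counts in pmk-1, against 9 and 16 RPF counts, and its SE is narrower than counting error alone would give. dod-22 had 0 mRNA counts in both pmk-1 samples and 0 and 1 RPF counts, so no ratio could be formed from them.

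Other immune genes were low in both assays, with smaller TE folds. irg-5, another infection response gene, was at 24.3 and 24.4 CPM of mRNA in WT and 1.39 and 0.766 CPM in pmk-1. Its RPF level went from 40.4 and 38.5 CPM to 1.82 and 2.44 CPM. It fell by 4.50 in mRNA (adjusted p = 0.00764) and by 4.19 in RPF (adjusted p = 0.00879) on the log2 scale, and its TE fold was 0.32 ± 0.36, and -0.30 without replicate 2. ZK6.11 had 628 and 689 CPM of mRNA in WT and 162 and 167 CPM in pmk-1, with a TE fold of 0.22 ± 0.17. lys-1, another lysozyme gene, fell by 2.05 in mRNA and fell by 1.84 in RPF, both past the threshold, and its TE fold was 0.21 ± 0.16 (interval -0.13 to 0.55). Among the 13 lysozyme genes tested, 12 TE folds were above 0 (52.3% of all genes were), 0 passed, and the median was 0.16. One of them moved the other way in level: lys-4 rose by 1.00 in mRNA (adjusted p = 0.0488), and its TE fold was 0.40 ± 0.17.

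**Figure D3:**
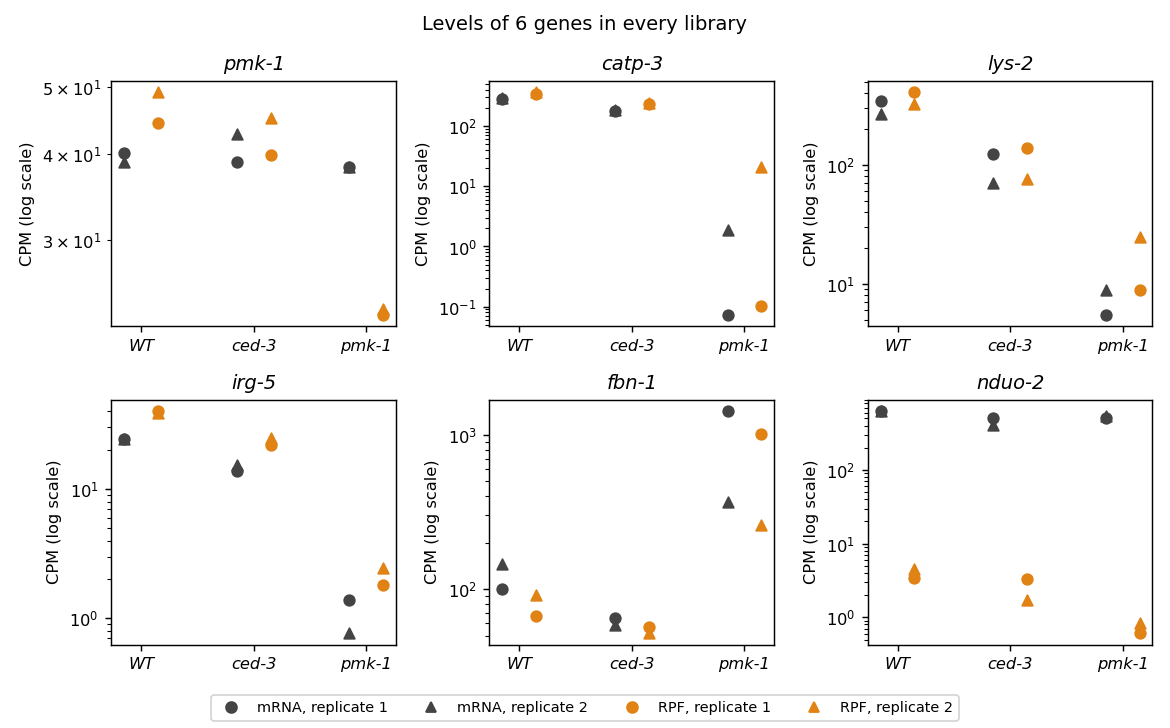
CPM on a log axis in every library for 6 genes, with grey marks for mRNA, orange marks for RPF, circles for replicate 1 and triangles for replicate 2. pmk-1 shows low RPF at an equal mRNA level, catp-3 a gap between its pmk-1 replicates, lys-2 and irg-5 low values in both assays, fbn-1 high pmk-1 values in both assays, and nduo-2 low RPF alone.

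Besides catp-3, the genes outside that list that were nearly lost from pmk-1 mRNA had TE folds above 0 with both samples, except a noncoding RNA. K11H12.4 was at 179 and 131 CPM of mRNA in WT and 2.34 and 3.96 CPM in pmk-1. RPF was 298 and 191 CPM against 6.06 and 17.8 CPM. In ced-3 worms K11H12.4 was low as well, at 17.4 and 11.3 CPM of mRNA and 33.9 and 15.5 CPM of RPF. The TE fold of pmk-1 against WT was 1.24 ± 0.24 (adjusted p = 0.271), and 0.74 without replicate 2. oac-20, an O-acyltransferase homolog that lies opposite fbxa-99 on the other strand, had 2.33 ± 0.55 and 0.84. In ced-3 worms oac-20 mRNA was at 6.79 and 3.71 CPM, against 22.8 and 25.7 CPM in WT. F59A7.2 had 1.72 ± 0.45 and 0.86. ZK970.7 had 1.47 ± 0.42 and 1.13, and F01D5.1 had 0.39 ± 0.19 and 0.18. dod-17 changed sign, from 0.63 ± 0.32 to -0.30, and so did T24E12.5, from 0.90 ± 0.40 to -0.39. Y73B3A.23, the noncoding RNA, was below 0 both ways, at -0.38 ± 1.51 and -3.42. None of these passed. The genes were chosen for low pmk-1 mRNA, which is also the lower part of their TE. The sign that most of them share is therefore a description.

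Moulting genes varied between the pmk-1 worm samples in both assays, and their TE was flat. These genes build the new cuticle and rise and fall once in each larval stage. The 39 genes of the list summed to 3951 and 4389 CPM of mRNA in WT and to 12953 and 5847 CPM in pmk-1. In RPF they summed to 5151 and 4803 CPM in WT and 14512 and 6651 CPM in pmk-1. Replicate 1 was high in both, and replicate 2 was closer to WT. Summed hypodermis markers ran from 138 to 159 CPM in WT mRNA and from 191 to 348 CPM in pmk-1 mRNA, and their part in these values was not tested. fbn-1, which encodes a fibrillin-like matrix protein, was at 99.8 and 145 CPM of mRNA in WT and 1428 and 364 CPM in pmk-1. Its RPF level was 66.8 and 91.5 CPM in WT and 1015 and 261 CPM in pmk-1. Its log2 ratio of RPF to mRNA was -0.58 and -0.67 in WT and -0.49 and -0.48 in pmk-1, with a TE fold of 0.14 ± 0.15 (interval -0.18 to 0.46).

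Other moulting genes did the same. mlt-11, a protease inhibitor gene, had 691 and 84.3 CPM of mRNA in pmk-1 against 28.7 and 26.4 CPM in WT, and a TE fold of -0.04 ± 0.18. wrt-10, a hedgehog-related gene, had -0.19 ± 0.16, and noah-1, an apical matrix gene, had -0.09 ± 0.19. The median of the list was -0.02 (-0.09 without pmk-1 replicate 2), 0 of 39 passed, and 1, mlt-9, had an unadjusted p below 0.05 with a TE fold of -0.58 ± 0.21. No moulting gene passed in mRNA or RPF either, where the 2 pmk-1 samples differed widely.

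The 12 genes encoded by the mitochondrial genome had the lowest median TE fold of the lists described. They encode subunits of the respiratory chain and are read by mitochondrial ribosomes, not by those of the cytosol. All 12 folds were below 0, where 47.7% of all genes were. The worm samples of the groups did not overlap for 11 of 12, against 13.3% of all genes that did not overlap in the lower direction. Unadjusted p-values below 0.05 were found for 10, all lower (1.61% of all genes were), and 1 passed the adjusted test. The number that passed was 6 with the compared genotypes alone, 8 with no filter on low counts, and 2 with DESeq2 or with RLE size factors. It was 0 without the robust option, with protein coding genes alone and with limma. It was also 0 with TMM within each assay and without the pairing of mRNA and RPF. The median TE fold was -1.72, from a median of -0.20 in mRNA and -1.93 in RPF. Without pmk-1 replicate 2 the median was -1.86. Over all alternatives, among them the fits that left out 1 WT or pmk-1 sample, it ran from -2.08 to -1.28.

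nduo-2, a subunit of NADH dehydrogenase, was the gene that passed. Its mRNA was 638 and 632 CPM in WT and 507 and 540 CPM in pmk-1. RPF was 3.42 and 4.48 CPM in WT and 0.606 and 0.846 CPM in pmk-1, from 6 and 9 counts. The TE fold was -2.15 ± 0.32 (interval -2.84 to -1.46, adjusted p = 0.0443). With so few counts, this SE and interval, and the SE of nduo-3 below, are narrower than counting error alone would give. nduo-2 passed in 6 of 15 alternatives, with folds from -2.36 to -1.93, and its fold was -2.36 without replicate 2. The alternatives it passed in include those without a ced-3 sample, which nearly repeat the fit of the compared genotypes alone. nduo-3 had -2.21 ± 0.37 (adjusted p = 0.0583) from 4 and 5 RPF counts in pmk-1. nduo-2 overlaps tRNA genes and nduo-3 overlaps nduo-5, so shared reads could be counted to either. ctc-1, the catalytic subunit of cytochrome c oxidase, had 5113 and 5500 CPM of mRNA in WT and 6258 and 7209 CPM in pmk-1, but RPF levels of 24.4 and 48.6 CPM against 6.97 and 11.7 CPM. Its fold was -2.27 ± 0.73. ctb-1 (cytochrome b) had -1.33 ± 0.48, and atp-6 of the ATP synthase had -1.28 ± 0.30. ndfl-4, the member whose samples overlapped, had -0.73 ± 0.60.

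The footprint counts behind these folds were small. Mitochondrial mRNAs gave 697 and 1532 RPF counts in WT, 292 and 488 in pmk-1, and 1159 and 523 in ced-3. In CPM these were 88.2 and 152 in WT, 29.5 and 45.9 in pmk-1, and 144 and 52.7 in ced-3. The pmk-1 samples were the lowest, and the lower ced-3 sample came near them. The matching mRNA counts ran from 210961 to 305132. Mitochondrial ribosomal RNA gave 127 and 187 RPF counts in WT and 175 and 188 in pmk-1, which was not lower in pmk-1. Against ced-3 worms 0 mitochondrial genes passed the TE test in edgeR, and nduo-2 had -1.94 ± 0.35 (adjusted p = 0.0858). With DESeq2 3 passed, with the compared genotypes alone 1, with no filter 8 and without ced-3 replicate 2 7. Whether these fragments come from mitochondrial ribosomes was not tested.

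**Figure D4:**
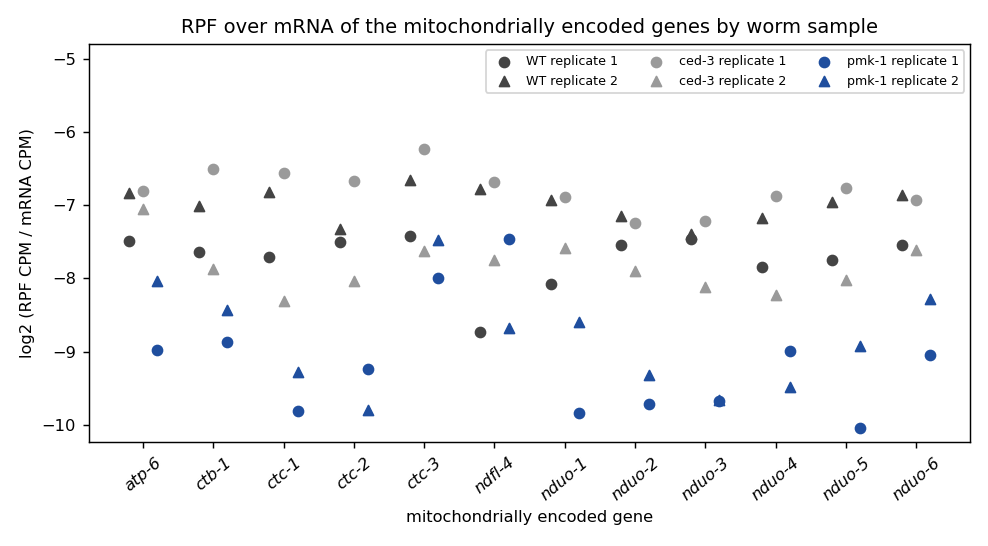
Log2 of RPF CPM over mRNA CPM for the 12 mitochondrially encoded genes (x axis) in each worm sample, with dark marks for WT, light grey marks for ced-3, blue marks for pmk-1, circles for replicate 1 and triangles for replicate 2. The blue marks lie below the WT marks in 11 of 12 genes, and for nduo-2 they stand at -9.71 and -9.32 against -7.55 and -7.14 in WT.

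Noncoding RNAs with as few footprints also had TE folds below 0. Genes of at least 5 CPM were grouped by their log2 ratio of RPF to mRNA in ced-3 worms, which are not part of the comparison. The lowest group, below -6, held 71 genes: the 12 mitochondrial mRNAs, 56 genes that are not protein coding, of which 34 were small nucleolar RNAs, and 3 others. Of the 71, 61 had folds below 0 (47.7% of all genes), 25 were lower at an unadjusted p below 0.05 (1.61%) and 0 higher (1.74%). Their median TE fold was -1.39. For the 56 that are not protein coding it was -1.34 in TE and -0.03 in mRNA. In the 6 other groups the median lay between -0.03 and 0.08. The low values of mitochondrial mRNAs thus stood beside values of similar size in RNAs without a coding sequence, and the cause of either was not tested.

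3 such noncoding RNAs were among the 6 falls with the smallest p-values. That ranking covers genes of at least 5 CPM whose groups did not overlap. lfor-1 had 587 and 721 CPM of mRNA in WT and 592 and 841 CPM in pmk-1, but 3.29 and 4.28 CPM of RPF against 0.505 and 0.752 CPM. Its fold was -2.70 ± 0.42 (adjusted p = 0.0583). It overlaps sre-13 on the same strand. R144.15 is an abundant RNA, at 22080 and 19493 CPM in the WT mRNA libraries and 15741 and 16927 CPM in pmk-1. In RPF it was at 89.8 and 165 CPM in WT and 10.8 and 18.4 CPM in pmk-1, with a fold of -2.75 ± 0.46 (adjusted p = 0.271). It overlaps R144.16 and lies opposite klp-6. ZK185.9 had -2.38 ± 0.51 from 3 RPF counts in each pmk-1 sample, an SE narrower than counting error alone would give. A noncoding RNA of the other direction was rncs-1, which inhibits Dicer: it had 1.08 ± 0.22 (adjusted p = 0.271). Its RPF was 6.83 and 3.98 CPM in WT and 6.77 and 9.21 CPM in pmk-1. Its log2 ratio of RPF to mRNA was -3.99 and -4.39 in WT and -3.32 and -2.89 in pmk-1. In ced-3 worms that ratio was -3.15 and -3.23, and the fold of pmk-1 against ced-3 was 0.09 ± 0.20.

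Cuticle collagens, histones and muscle filament genes had TE folds slightly below 0 as groups, with 0 members past the test. Of all genes, 47.7% had folds below 0, and 1.61% were lower at an unadjusted p below 0.05. Among 16 named cuticle collagen genes the median was -0.31, 15 folds were below 0, and 5 had an unadjusted p below 0.05: rol-6, rol-8, sqt-2, sqt-3 and dpy-3, with folds from -0.50 to -0.42. rol-6 was at 28.1 and 21.2 CPM of mRNA in WT and 16.9 and 28.03 CPM in pmk-1, and at 38.8 and 29.1 CPM of RPF against 14.2 and 31.5 CPM. Its fold was -0.48 ± 0.18. The col family of 100 genes had a median of -0.21, with 77 below 0 and 10 lower at an unadjusted p below 0.05. The lowest p-value was that of col-176, at -0.87 ± 0.26, and 1 gene, col-79, was higher at 1.92. The 39 histone genes had a median of -0.25 and 35 below 0. Of these, his-3, for histone H2A, went from 38.1 and 42.2 CPM of RPF to 17.1 and 24.1 CPM, with a fold of -0.65 ± 0.16 (adjusted p = 1). Histone genes are near-identical copies, so their counts are uncertain. The 33 muscle filament genes had a median of -0.16 with 32 below 0, and none had an unadjusted p below 0.05. Summed body wall muscle markers ran from 14300 to 18000 CPM of mRNA in WT and from 18000 to 20200 CPM in pmk-1, and their part in these values was not tested. The muscle median ran from -0.31 to -0.07 and the histone median from -0.56 to -0.01 over the alternatives, so the size of these shifts depends on the setting.

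The genes of the translation machinery had TE folds near 0. The 81 cytosolic ribosomal protein genes had a median TE fold of 0.07, and 81 of 81 lay within 0.5 of 0. The 44 initiation and elongation factor genes had a median of 0.03 with 0 at an unadjusted p below 0.05, and eif-1 had the lowest p-value, at 0.24 ± 0.16. Aminoacyl-tRNA synthetase genes (32) had a median of 0.07, proteasome subunits (33) of 0.03, ribosome biogenesis genes (36) of 0.01 and nuclear encoded respiratory chain genes (49) of 0.03. Mitochondrial ribosomal protein genes (66) had a median of 0.13. Of these, 2 were higher at an unadjusted p below 0.05 (1.74% of all genes were), mrps-33 at 0.37 ± 0.16 and mrpl-23 at 0.37. Without pmk-1 replicate 2 these medians lay between 0.02 and 0.20. These medians of nuclear genes that work in mitochondria stand beside the -1.72 of the mitochondrial genome.

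**Figure D5:**
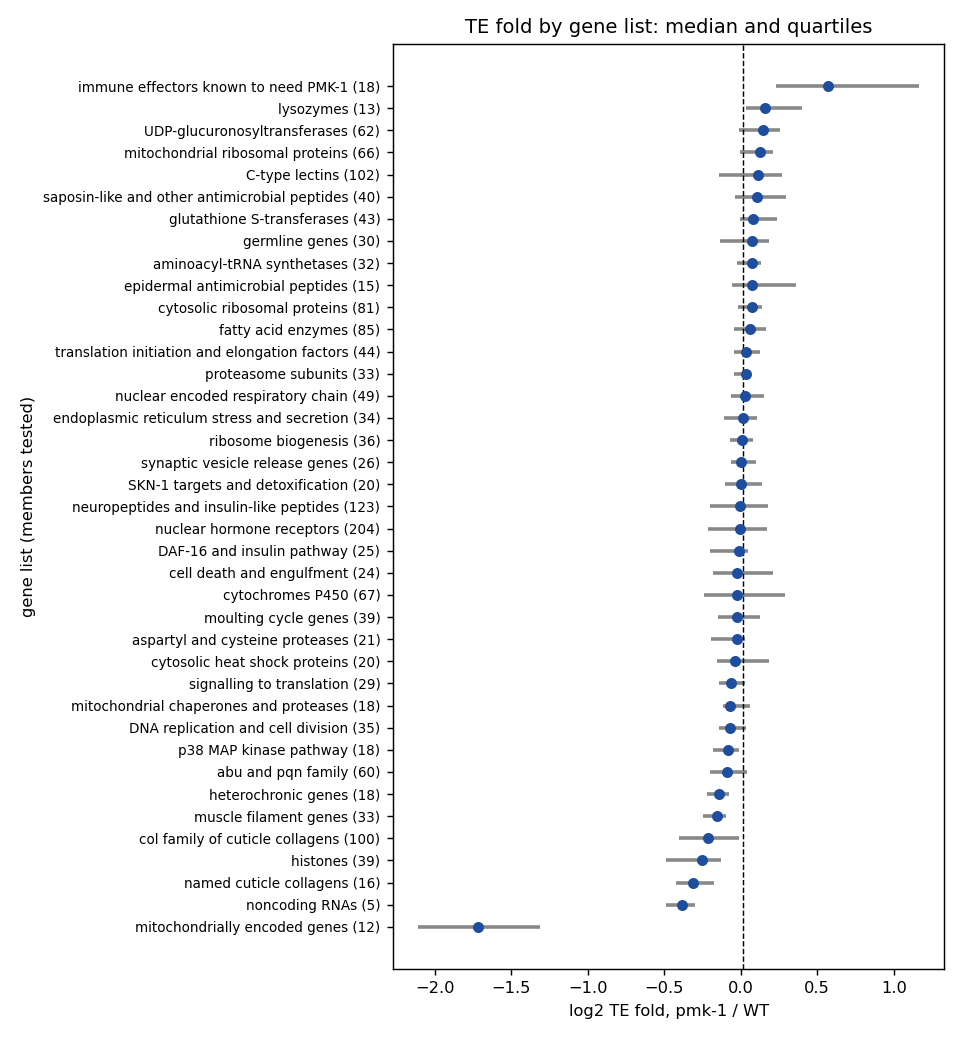
Median (point) and quartiles (bar) of the log2 TE fold of pmk-1 against WT for 39 gene lists, with the number of members tested in brackets and the median of all genes as a dashed line. Mitochondrially encoded genes stand lowest at -1.72, immune effectors highest at 0.57, and most other medians lie near 0.

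Of the remaining lists, UDP-glucuronosyltransferase genes, which conjugate toxic compounds, had a median of 0.15. Of 62 such genes, 5 were higher at an unadjusted p below 0.05 (1.74% of all genes were). ugt-6 led them with 0.92 ± 0.27, and ugt-1, ugt-22, ugt-25 and ugt-26 had 0.30 to 0.36. C-type lectins (102) had a median of 0.11. At an unadjusted p below 0.05, 3 were higher (clec-67, clec-76 and clec-125), where 1.74% of all genes were. At that level 3 were lower (clec-78, clec-63 and clec-150), where 1.61% of all genes were. Of these, clec-78 had -1.34 ± 0.38, and it lies opposite other genes. Single genes with the lowest p-value in their lists and none past the adjusted test were the neuronal gene ric-7 at -0.64 ± 0.18, the nuclear receptor nhr-91 at -0.61 ± 0.17 and the neuropeptide gene nlp-6 at -0.69 ± 0.26. The glutathione transferase gst-4 had 0.43 ± 0.18 and the antimicrobial peptide gene cnc-8 had 0.55 ± 0.18. Heterochronic genes, which time larval development, had a median of -0.14 with 16 of 18 below 0 (47.7% of all genes were). The median became -0.38 without pmk-1 replicate 2. With all samples alg-2 had -0.19 ± 0.16. The caspase gene ced-3 was expressed at 2.49 to 5.43 CPM of mRNA in these worms and had a TE fold of -0.02 ± 0.39.

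The TE of pmk-1 was also tested against ced-3 in the same fit, to see which folds separate it from the other mutant. This comparison shares the pmk-1 samples with the one above. It called 4 of 13698 genes (0.0292%), among them catp-3 with 3.06 ± 0.26, which again was not called without pmk-1 replicate 2. The other 3 were genes in which pmk-1 had the ratio of WT. cpr-1, a cysteine protease gene of the cathepsin B family, had log2 ratios of RPF to mRNA of 0.36 and 0.27 in WT, 0.24 and 0.18 in pmk-1, and -0.81 and -0.86 in ced-3. Its fold was 1.04 ± 0.16 against ced-3 (adjusted p = 0.0446) and -0.10 ± 0.16 against WT. The cuticle collagen gene dpy-4 had 1.19 ± 0.19 against ced-3 (adjusted p = 0.0484) and 0.07 ± 0.19 against WT. C23H3.9 had -1.78 ± 0.21 against ced-3 (adjusted p = 0.00215) and -0.21 ± 0.27 against WT. For the gene pmk-1 the fold against ced-3 was -0.76 ± 0.16 (adjusted p = 0.163).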

How the data were processed

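The authors deposited raw read counts per gene for 12 libraries, and per the submitters' processing notes STAR, Bowtie2, HTSeq and build WBcel235 were used. Their versions, and whether counting used strand, are not given in the sources used here. Per the labels, RPF and mRNA were taken from 1 sample of worms, so the worm sample was a block. In edgeR 4.0.16 (R 4.3.3) counts of 12 libraries were filtered (filterByExpr, minimum count 10, minimum total 15) and TMM scaled, and the genotype by assay term was tested by the robust quasi-likelihood test with Benjamini-Hochberg adjustment at 0.05. RPF and mRNA were also fitted alone over 6 libraries each. The mRNA and RPF deviations from the genotype means had correlations over genes of 0.657 (pmk-1), 0.618 (ced-3) and 0.167 (WT). CPM uses the TMM scaled totals. The SE was formed as the absolute log2 fold over the square root of the F statistic of the test. For genes with few counts it can therefore be smaller than the counting error. With 2 against 2 samples an exact permutation test cannot go below p = 0.333, so none was used. The annotation held 46603 of the 46778 deposited genes. The procedure was also run on simulated data with changes placed only in genes of high mean count. Its outcome is not given here, and no result rests on it.

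Named genes were the genes past the threshold with at least 5 CPM and no overlap of the groups. Where fewer than 5 passed, the 6 smallest p-values in each direction were added, with the mutated genes and the leading gene of each of 39 lists. Further list members are given as examples. The members and lists were chosen with earlier results of these data known. Alternatives used DESeq2 1.42.0, limma 3.58.1, other scaling, filters and sets of samples.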

Additional observations from a re-analysis of the deposited data

Results flagged for a closer look

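2 genes differed in TE between pmk-1 and WT past the threshold: catp-3, with a log2 fold of 3.12, and nduo-2, with -2.15. For catp-3 the RPF counts in pmk-1 were 1 and 226, and the fold was 0.11 without replicate 2. For nduo-2 they were 6 and 9, and the fold was -2.36 without that replicate.

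4 genes differed in TE between pmk-1 and ced-3 by the test of that difference: catp-3 with 3.06, dpy-4 with 1.19, cpr-1 with 1.04 and C23H3.9 with -1.78. For the last 3 the pmk-1 ratio was near that of WT. Both sets are tests of a difference between genotypes in the fold of RPF over mRNA.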

How the results depend on the processing

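The count of genes with a TE change between pmk-1 and WT was 2. It was 5 with RLE size factors, 6 with DESeq2, 43 with no filter on low counts, 1 without the robust option, 1 with protein coding genes alone, 17 with the compared genotypes alone, 1 with TMM within each assay and 1 with at least 30 counts in both assays. It was 0 with limma on the log ratios, where 651 genes had an unadjusted p below 0.05. Leaving out 1 worm sample gave 0 to 19, with 0 for pmk-1 replicate 2, 17 for ced-3 replicate 1 and 19 for ced-3 replicate 2. In this comparison a lone ced-3 sample adds nothing to the estimate of spread. The fits without a ced-3 sample therefore nearly repeat the fit of the compared genotypes alone. Without the pairing of mRNA and RPF (no replicate block) the count was 0, with 172 genes at an unadjusted p below 0.05. catp-3 passed in 13 of 16 alternatives.

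Against ced-3 the count was 4. It was 23 with DESeq2, 69 with no filter, 2 without the robust option, 12 with protein coding genes alone, 18 with the compared genotypes alone, 1 with limma, 2 with at least 30 counts, 0 with no replicate block (251 at an unadjusted p below 0.05 in edgeR), and 0 to 81 when 1 worm sample was left out, with 0 without pmk-1 replicate 2 and 81 without ced-3 replicate 2. The RPF count of 23 became 281 with DESeq2, 212 with no filter, 47 with the compared genotypes alone, and 0 to 205 with 1 worm sample left out, with 205 without pmk-1 replicate 2 and 0 without either WT sample or pmk-1 replicate 1. With the replicate number as a replicate block it was 0 in edgeR, with 984 at an unadjusted p below 0.05. The mRNA count of 57 became 377 with DESeq2, 221 with no filter, 27 with the replicate block, and 2 to 388 with 1 worm sample left out, with 2 without either WT sample and 388 without pmk-1 replicate 2.

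Of the TE folds of genes named by the rule, 3 changed sign. That of ced-3 was -0.02 and became 0.00367 with protein coding genes alone, 0.00835 without WT replicate 2, 0.284 without pmk-1 replicate 1 (-0.373 to 0.284 over the samples left out) and 0.00965 with no replicate block. That of rpl-11.1 went from 0.23 to -0.0286 without WT replicate 1 (range -0.0286 to 0.449). That of dod-17 went from 0.63 to -0.305 without pmk-1 replicate 2 (range -0.305 to 1.24). Of the further examples, clec-67, C17H12.8, irg-5, T24E12.5 and nsy-1 changed sign without pmk-1 replicate 2. Among the other values of genes named by the rule in this comparison, 660 kept direction and call, 33 passed newly and 12 no longer passed. Only catp-3 and nduo-2 had passed in the main fit, so the 12 values that no longer passed are all theirs. Most of the 660 are genes that passed in neither fit. Causes were not tested. With 2 worm samples a group, and 3 counts as the floor of an RPF library (0.282 to 0.380 CPM), TE of genes with few footprints is the least certain.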

Other observations

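Some named genes were not described above. cyp-33D1, a cytochrome P450 gene, had a TE fold of 1.18 ± 0.42, and ech-1.1, a gene of fatty acid oxidation, had 0.70 ± 0.30. The cyclin D gene cyd-1 had -0.72 ± 0.32, and the AMP-activated kinase gene aak-1 had -0.55 ± 0.25. The engulfment receptor gene ced-1 was at 76.7 and 89.4 CPM of mRNA in WT and 122 and 126 CPM in pmk-1, with a TE fold of -0.35 ± 0.15. cox-7C, of the list of nuclear encoded respiratory chain genes, had 0.41 ± 0.16. None of these passed the adjusted test, and each was the member of its list with the smallest p-value.

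The gut protease gene asp-14 fell by 1.63 in mRNA on the log2 scale (adjusted p = 0.0242 in edgeR). Its mRNA was 155 and 193 CPM in WT and 49.9 and 61.6 CPM in pmk-1. Its RPF level was 379 and 420 CPM in WT and 131 and 174 CPM in pmk-1, and its TE fold was 0.24 ± 0.15. For acs-3, which encodes an acyl-CoA synthetase, RPF was 3.92 and 5.18 CPM in WT and 20.3 and 20.95 CPM in pmk-1. It is one of the 2 genes that rose in RPF, by 2.18, and its TE fold was 0.35 ± 0.28. It was chosen after its values were seen.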
